A study of Mus musculus with 6 samples.

Results

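The B-cell identity transcription factors described here are 10 genes, *Ebf1*, *Pax5*, *Foxo1*, *Ikzf1*, *Ikzf3*, *Spib*, *Irf8*, *Pou2af1*, *Bach2* and *Bcl6*. They were chosen by name as regulators of the B-cell lineage and were found by gene symbol among the 46983 genes of a bulk RNA-seq table. Its 6 libraries come from mouse splenic B cells cultured to switch to IgA, with 3 WT and 3 *Hif1a* KO libraries, and the comparison asks how the loss of HIF-1α changes expression during the switch. All cultures, KO and WT alike, contained 5 μg/ml of LPS plus 10 ng/ml each of TGF-β, IL-5 and BAFF, and were collected on day 3. In the KO, floxed *Hif1a* is deleted by *Mb1*-cre, which acts in the B lineage from its early stages. The WT controls were littermates on the same C57BL/6 background, with either 1 floxed allele and cre or 2 floxed alleles without cre, and which of these a library came from is not labelled. The age of the mice is not given for these cultures. The labels do not say whether libraries of one group came from separate mice, so the spread between them may be partly technical.

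B-cell identity is set by a small circuit of transcription factors. EBF1 and FOXO1 open the B-cell programme in the bone marrow and induce PAX5, which activates B-cell genes and silences those of other lineages. Ikaros (*Ikzf1*) and Aiolos (*Ikzf3*) are zinc finger factors of one family, Spi-B and IRF8 bind composite DNA elements, and OCA-B (*Pou2af1*) is a coactivator of octamer-binding factors. BACH2 and BCL6 hold back *Prdm1*, the gene of Blimp-1, which in turn shuts off *Pax5* and drives plasma cell differentiation.

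The values are FPKM, read counts scaled by gene length and by library size. The depth recovered from the values was 25030210 to 37222477 reads per library, and 9 of the 10 genes had over 1000 reads in every library. *Bcl6* was the exception, with 148 to 301 reads. The markers of B cells were abundant in all libraries, with *Ms4a1* at 326 to 445 FPKM, and no T-cell marker of 6 reached the mean of 0.5 FPKM needed for testing (summed level 0.553 to 1.52 FPKM). *Hif1a* itself had 36.5, 49.8 and 45.8 FPKM in WT and 46.5, 45.6 and 52.8 FPKM in KO replicates 1 to 3 (log2 fold change 0.14, SE 0.12), and was thus not lower in the libraries labelled KO. A value for the whole gene does not show the loss of its floxed part, so it does not check the genotype of any library. WT replicate 1 stood apart from its group, and whether it carries its labelled genotype could not be settled from these values. Across the genes tested, which are not independent replicates, its log2(FPKM + 1) values correlated with r = 0.983 with each of WT replicates 2 and 3, and with r = 0.991 to 0.994 with the KO libraries. WT replicates 2 and 3 equally formed a pair apart from the rest. On the axis of greatest spread between libraries (first principal component, 54.7% of the variance) they lay at 26.2 and 25.9, against −19.5 to −7.10 for the others. Whether WT replicate 1 or that pair is unusual cannot be told from these values. The results of the 10 genes, and the calls in the gene lists, are therefore given with and without WT replicate 1. It was set apart on these same values, and without it only WT replicates 2 and 3 remain in the group. Leaving out the WT library most like KO tends to widen the differences. The p-values and calls without it are thus a description and not an independent test.

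All 10 genes were expressed, over a wide range. On the deposited FPKM scale, *Spib* (mean 517 over 6 libraries) and *Pax5* (507) were the most abundant, followed by *Irf8* (448) and *Pou2af1* (399). The ranges of these 4 genes over the libraries overlapped from neighbour to neighbour, so their order is not fixed beyond the spread. *Ikzf3* (249) and *Ikzf1* (214) formed a middle level, and *Ikzf3* exceeded *Ikzf1* in each of the 6 libraries by 1.10 to 1.30 times. *Ebf1* (61.4), *Bach2* (50.3) and *Foxo1* (29.5) were lower. The ranges of *Ebf1* and *Bach2* overlapped, and that of *Foxo1* lay below both. *Bcl6*, best known from germinal center B cells, was lowest, with a mean of 2.14 FPKM.

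This order depends on the gene length used. The length behind each deposited value could be recovered together with the reads, and in 8 of the 10 genes it was shorter than the union of the exons annotated in GENCODE vM21. For *Pax5* it was 1282 bases, against 8853 bases of annotated exons and thus 6.91 times less. With the exon-union lengths, *Pou2af1* came first with a mean of 402 FPKM, before *Spib* (267), *Irf8* (100.1), *Ikzf1* (80.3), *Pax5* (73.4) and *Ikzf3* (69.6). *Foxo1* (29.5) then stood above *Bach2* (16.4) and *Ebf1* (15.8), and *Bcl6* (1.19) remained the lowest. Differences between libraries are not touched, because 1 length serves all libraries of a gene. Other annotated genes overlap 9 of the 10, all but *Spib*, and the highest mean of any of them was 2.73 FPKM.

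**Figure D1:**
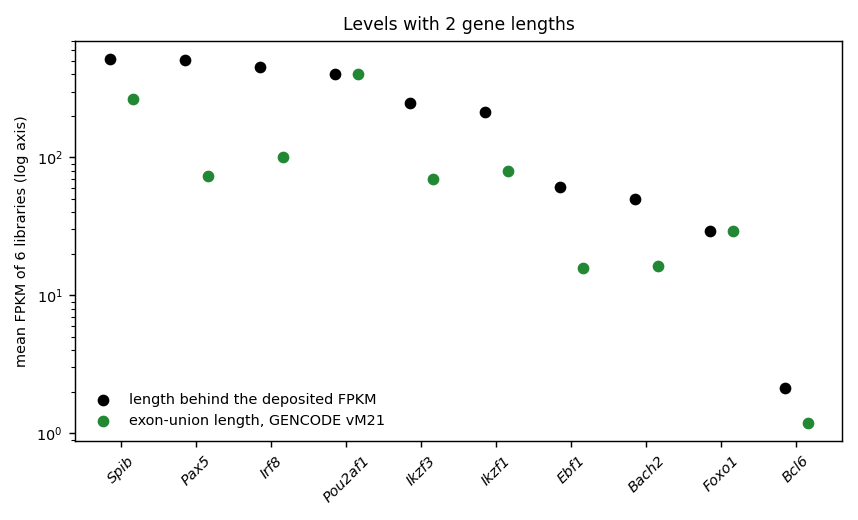
Mean FPKM of the 10 genes over 6 libraries on a log axis, with the length behind the deposited values (black) and with the exon-union length of GENCODE vM21 (green). *Pax5* moves from 507 to 73.4, while *Pou2af1* (399 and 402) and *Foxo1* (29.5 with both) hardly move.

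The promoters of the 10 genes were searched for the core of the hypoxia response element, the letters that HIF-1 recognises, because the comparison removes HIF-1α. RefSeq windows on GRCm38.p6, from 250 bases before to 50 bases after a start, were at hand for 9 of the 10 genes, as 13 windows, and *Ikzf3* had none. ACGTG or GCGTG on either strand occurred in 7 of the 13 windows, from 7 genes, and in 43.8% of all 32851 windows. The stretches below are written in the direction of the gene with the motif in capitals, and show the match nearest to the start on its upstream side, or for *Ikzf1* the only match, 17 bases after the start.
*Pou2af1* (chr9:51213621-51213645, + strand, 59 bases before the start): ggatgtgatgACGTGgcccctctca
*Irf8* (chr8:120736162-120736186, + strand, 186 bases before the start): ggggtcggggACGTGcaaaagtgat
*Foxo1* (chr3:52268087-52268104, + strand, 247 bases before the start): ctcCACGCcggtttgcct
*Ebf1* (chr11:44620096-44620120, + strand, 122 bases before the start): gtttcctctcCACGCagcgcgtttc
*Ikzf1* (chr11:11685932-11685956, + strand, 17 bases after the start): tcccgaagccGCGTGccgtgcgcgc
*Pax5* (chr4:44710822-44710846, − strand, 142 bases before the start): cgggggcgcgACGTGtctggggaca
*Bcl6* (chr16:23988897-23988922, − strand, 60 bases before the start): tcacggagccCACGTGacggcggcgg
In *Bcl6* the match overlaps its own reverse strand copy and forms CACGTG. The windows of *Bach2* and *Spib* held no match. The only *Bach2* window (chr4:32417185-32417484) is at a start inside the gene, which begins at 32238804, so a promoter at that end was not searched. The starts of the *Ebf1* and *Ikzf1* stretches also lie downstream of the first annotated base of the gene.

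The composite element bound by Spi-B or PU.1 together with IRF4 or IRF8 was searched as GGAA and GAAA with any 2 bases between them, on either strand. It occurred in 2.72% of all windows and in 2 of the 13. These were the windows of the start inside *Bach2* and of the downstream start of *Bcl6*, the 2 repressors of *Prdm1* in the set.
*Bach2* (chr4:32417408-32417437, + strand, 17 bases before the start): acgaacgggcTTTCCCTTCCggtctaggtg
*Bcl6* (chr16:23981292-23981321, − strand, 28 bases before the start): cagaataacaGGAAAAGAAAaaaaaaaaga
The octamer ATTTGCAT, through which OCA-B acts, was in none of the 13 windows and in 1.74% of all windows. These matches are letters in a window and were not tested for binding.

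With all 6 libraries, none of the 10 genes passed the test between *Hif1a* KO and WT cells. Their p-values, adjusted over the 13312 genes with a mean of at least 0.5 FPKM, ran from 0.626 to 0.910 (limma on log2(FPKM + 1) with Benjamini-Hochberg adjustment). Of all these genes 0 were called (0%) and the smallest adjusted p was 0.321. Without adjustment 929 genes (6.98%) had a p under 0.05, and of the 10 only *Foxo1* did. The KO and WT values overlapped in all 10 genes, whereas the groups did not overlap in 10.1% of the genes tested (4.06% with KO above and 6.03% with KO below). The log2 fold change was above 0 in 7 of the 10 genes, with a median of 0.18, while 42.1% of all genes tested were above 0, with a median of −0.028. In bulk samples such as these, fewer cells of a type and less RNA per cell cannot be told apart.

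**Figure D2:**
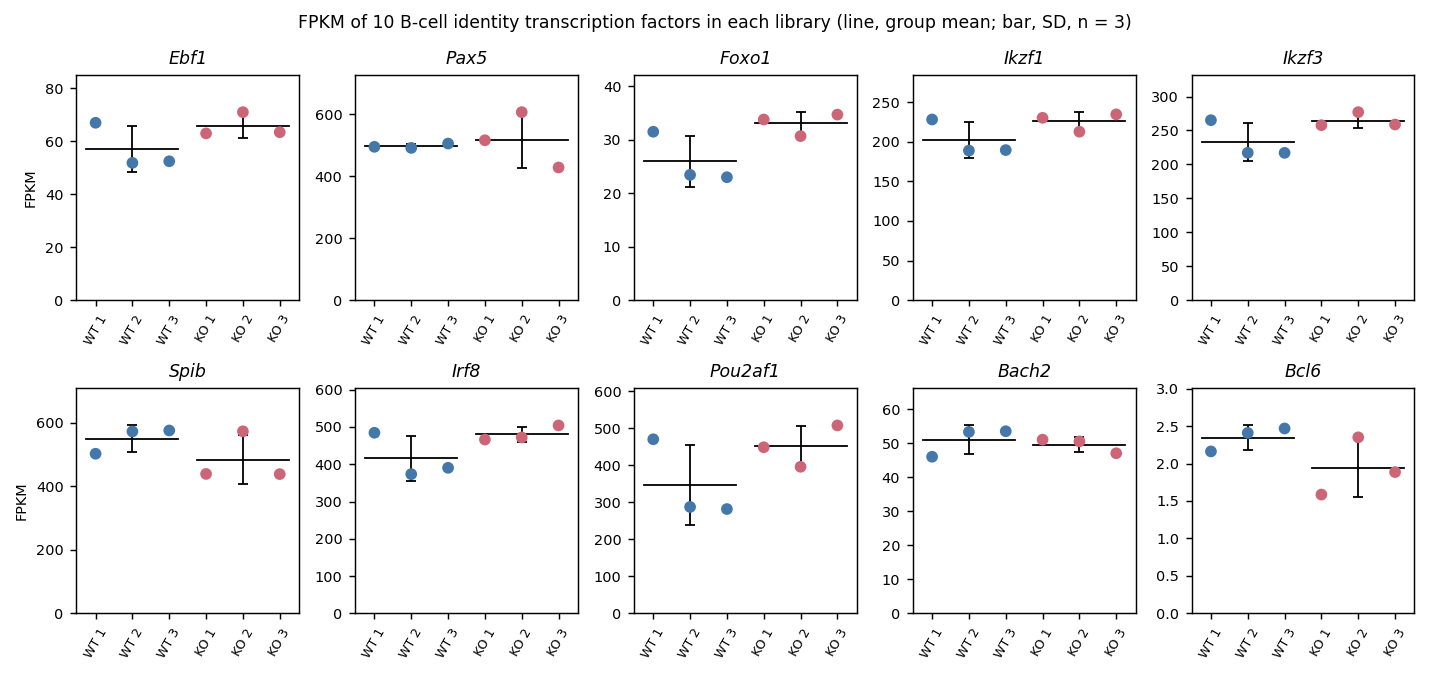
FPKM of each of the 10 genes in the 3 WT (blue) and 3 KO (red) libraries, with the group mean as a line and the SD (n = 3) as a bar. WT replicates 2 and 3 are the lowest libraries for 6 genes and the highest for *Bach2* and *Bcl6*, while *Pax5* and *Spib* follow neither pattern.

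Among the factors that open the B-cell programme, *Ebf1* (ENSMUSG00000057098, chr11:44617317-45008091 of mm10) encodes an early commitment factor. It had 67.0, 51.8 and 52.4 FPKM in WT replicates 1, 2 and 3 and 63.0, 71.0 and 63.4 FPKM in KO replicates 1, 2 and 3. WT replicates 2 and 3 were low, and WT replicate 1 lay inside the KO range. The log2 fold change was 0.21 (SE 0.11, 95% interval −0.06 to 0.48). Without WT replicate 1 it was 0.33 and passed the test (adjusted p = 0.0438 by limma with Benjamini-Hochberg adjustment).

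*Foxo1* (ENSMUSG00000044167, chr3:52268336-52353221) encodes a forkhead factor that PI3K and AKT signals hold outside the nucleus. Its FPKM was 31.5, 23.4 and 23.0 in WT and 33.8, 30.7 and 34.7 in KO replicates 1 to 3. Again WT replicates 2 and 3 were the low libraries, and the groups overlapped only because WT replicate 1 lay above KO replicate 2. The WT mean was 25.9 ± 4.79 and the KO mean 33.0 ± 2.11 FPKM (SD, n = 3 each). On the log2 scale KO exceeded WT by 0.35 (SE 0.13, interval 0.05 to 0.65). The adjusted p was 0.626 with all libraries and 0.0173 without WT replicate 1, where the log2 fold change was 0.49 (limma with Benjamini-Hochberg adjustment).

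*Pax5* (ENSMUSG00000014030, chr4:44524757-44710487), the guardian of the mature B-cell state, showed another pattern. Its FPKM was 495, 491 and 505 in the WT and 516, 607 and 428 in the KO libraries. The WT values lay close together, and the KO values spread on both sides of them, with replicate 2 the highest and replicate 3 the lowest of all libraries. The group means were 497 ± 7.31 and 517 ± 89.3 FPKM (SD, n = 3 each). KO minus WT came to 0.04 on the log2 scale (SE 0.12, interval −0.25 to 0.33), and it turned to −0.08 without KO replicate 2. Without WT replicate 1 it was 0.04 (adjusted p = 0.880, limma with Benjamini-Hochberg adjustment).

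The Ikaros family genes had similar profiles. *Ikzf1* (ENSMUSG00000018654, chr11:11685003-11772926) had 228, 189 and 189 FPKM in WT and 230.2, 213 and 235 FPKM in KO replicates 1 to 3. For *Ikzf3* (ENSMUSG00000018168, chr11:98464902-98546031) the values were 265, 217 and 217 FPKM in WT and 258, 277 and 259 FPKM in KO replicates 1 to 3. In both genes WT replicates 2 and 3 were the lowest, and WT replicate 1 lay within the KO range. The ratio of *Ikzf3* to *Ikzf1* was 1.16, 1.15 and 1.15 in the WT libraries and 1.12, 1.30 and 1.10 in the KO libraries. KO replicate 2 had the highest *Ikzf3* and the lowest *Ikzf1* of the KO libraries. The log2 fold changes were 0.16 for *Ikzf1* (SE 0.09, interval −0.05 to 0.38) and 0.19 for *Ikzf3* (SE 0.09, interval −0.03 to 0.41). Without WT replicate 1, *Ikzf3* passed the test at 0.28 (adjusted p = 0.0389 by limma with Benjamini-Hochberg adjustment) and *Ikzf1* did not at 0.25 (adjusted p = 0.0600). *Ikzf5*, a further family gene, was at 22.3 to 27.5 FPKM, and *Ikzf2* was near 0 at 0.0157 to 0.147 FPKM.

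*Irf8* and *Spib*, which encode partners on composite elements, went opposite ways in the means. *Irf8* (ENSMUSG00000041515, chr8:120736358-120756694) had 484, 373 and 390.4 FPKM in WT and 466, 472 and 504 FPKM in KO replicates 1 to 3. WT replicates 2 and 3 were low, as for *Ebf1* and *Foxo1*. The log2 fold change of *Irf8* was 0.22 (SE 0.11, interval −0.04 to 0.47), and without WT replicate 1 it passed the test at 0.33 (adjusted p = 0.0321 by limma with Benjamini-Hochberg adjustment). *Spib* (ENSMUSG00000008193, chr7:44525993-44532071) had 503, 573 and 576 FPKM in WT and 439, 574 and 439 FPKM in KO replicates 1 to 3. Here KO replicates 1 and 3 were the low libraries, and KO replicate 2 lay with WT replicates 2 and 3. Its log2 fold change was −0.20 (SE 0.12, interval −0.48 to 0.09) and ranged from −0.32 without KO replicate 2 to −0.13 without KO replicate 3. Without WT replicate 1 it was −0.26 (adjusted p = 0.235, limma with Benjamini-Hochberg adjustment).

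*Pou2af1* (ENSMUSG00000032053, chr9:51213708-51240080), the coactivator gene, varied most of the 10. Its FPKM was 471, 288 and 282 in WT and 449, 396 and 508 in KO replicates 1 to 3, a 1.80-fold range. WT replicates 2 and 3 lay well below all other libraries, and WT replicate 1 was second only to KO replicate 3. The group means were 347 ± 107 and 451 ± 55.9 FPKM (SD, n = 3 each). Its log2 fold change of 0.41 (SE 0.21, interval −0.08 to 0.90) was the largest of the 10 genes in size. It was 0.65 without WT replicate 1 (adjusted p = 0.0216 by limma with Benjamini-Hochberg adjustment). When WT replicate 3 was left out instead, it came to 0.29.

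The genes that hold back plasma cell differentiation had other profiles. *Bach2* (ENSMUSG00000040270, chr4:32238804-32586108) was the steadiest, with 46.1, 53.4 and 53.6 FPKM in WT and 51.1, 50.6 and 47.1 FPKM in KO replicates 1 to 3. WT replicates 2 and 3 were the highest libraries and WT replicate 1 the lowest. For *Bach2* KO minus WT was −0.04 on the log2 scale (SE 0.08, interval −0.23 to 0.15), and −0.11 without WT replicate 1. *Bcl6* (ENSMUSG00000022508, chr16:23965052-23988852) had 2.16, 2.41 and 2.47 FPKM in WT and 1.59, 2.35 and 1.89 FPKM in KO replicates 1 to 3. Its highest libraries were again WT replicates 2 and 3, with KO replicate 2 close behind. The log2 fold change of *Bcl6*, understated at this low level, was −0.19 (SE 0.13, interval −0.49 to 0.10). It ran from −0.29 without KO replicate 2 to −0.10 without KO replicate 1, and was −0.23 without WT replicate 1. Neither gene passed the test without WT replicate 1 (adjusted p = 0.289 for *Bach2* and 0.304 for *Bcl6*, limma with Benjamini-Hochberg adjustment).

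**Figure D3:**
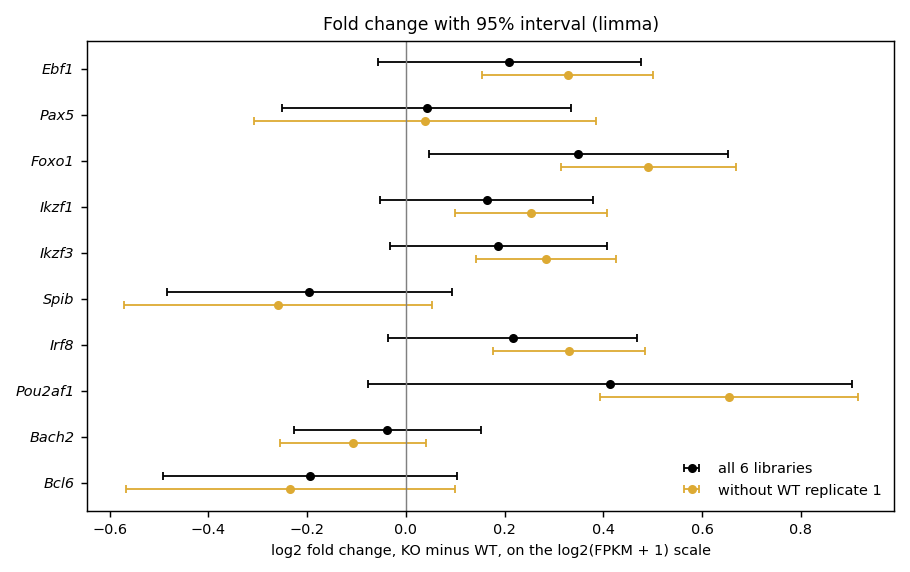
Log2 fold change of the 10 genes, KO minus WT, on the log2(FPKM + 1) scale with its 95% interval from limma, with all 6 libraries (black) and without WT replicate 1 (yellow). With all libraries only the *Foxo1* interval (0.05 to 0.65) leaves out 0, and without that library 5 genes passed the adjusted test, all of them higher in KO.

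Without WT replicate 1, 5 of the 10 genes were called, namely *Ebf1*, *Foxo1*, *Ikzf3*, *Irf8* and *Pou2af1*, and all 5 were higher in KO cells. In the same comparison 9.40% of the 13312 genes were called, 3.64% as higher and 5.75% as lower. The log2 fold change was above 0 in 7 of the 10 genes (40.5% of the genes tested). KO and WT values did not overlap in 8 of the 10 (50.5% of the genes tested), with KO above in 6 (18.4%) and below in 2, *Bach2* and *Bcl6* (32%). The 10 genes were picked with results of these libraries known, so these shares are a description. Each of the other 5 comparisons that left out 1 library called 0 of the 10 genes. Of the 5 genes called, all but *Ikzf3*, which had no window, held a hypoxia response element core in the promoter stretches printed above, as did *Ikzf1*, *Pax5* and *Bcl6*, which were not called. The core occurs in 43.8% of all windows, and *Ebf1*, *Irf8*, *Ikzf1* and *Bcl6* had 2 windows each, which favours a match per gene. Whether the motif bears on the calls was not tested.

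The study's methods start such cultures from CD21int CD23+ follicular B cells sorted from the spleen, a gate that would remove other cell types. Transcripts of some of these types nevertheless differed between the libraries, not all in the same way. Of 7 macrophage markers 4 were tested, and the summed level was 72.8, 166 and 117 FPKM in WT replicates 1 to 3 and 66.2 to 78.5 FPKM in the KO libraries. Most of this sum in every library was *Adgre1*. It had 59.8, 91.1 and 81.1 FPKM in WT and 67.7, 69.7 and 55.5 FPKM in KO replicates 1 to 3. Its groups overlapped, and it was not called with or without WT replicate 1. *Lyz2*, a lysozyme gene, had 6.18, 58.3 and 26.2 FPKM in WT and at most 3.70 FPKM in a KO library. *C1qa*, a complement gene of macrophages, had 0.103, 2.98 and 1.33 FPKM in WT and at most 0.193 FPKM in KO libraries. Both were called as lower in KO cells once WT replicate 1 was left out, as were 5.75% of all genes tested. Of 5 plasmacytoid dendritic cell markers 4 were tested, and this cell type also uses *Irf8* and *Spib*. Their summed level was 24.5 to 29.8 FPKM in WT and 18.4 to 29.5 FPKM in KO libraries. *Cox6a2* had 1.74, 9.26 and 9.57 FPKM in WT and 0.542 to 0.770 FPKM in KO libraries, and was thus high in WT replicates 2 and 3. Without WT replicate 1 it was the only 1 of the 4 called, as lower in KO cells (adjusted p = 0.00064, limma with Benjamini-Hochberg adjustment). *Siglech* had 5.36, 2.77 and 4.50 FPKM in WT and 1.86 to 2.50 FPKM in KO libraries, with WT replicate 1 the highest. The other 2 tested had higher means in KO, and *Ccr9* had 6.09, 1.17 and 1.05 FPKM in WT and 5.82, 2.47 and 8.43 FPKM in KO replicates 1 to 3. *Pacsin1* had a log2 fold change of 0.17 (SE 0.15). For 5 conventional dendritic cell markers the sum was 7.91 to 10.4 FPKM in WT and 6.17 to 8.47 FPKM in KO libraries, and *Clec9a* was listed at 0 in 5 of 6 libraries. WT replicate 1 had 32.7 FPKM over 6 neutrophil markers, against at most 0.442 FPKM in any other library, and *S100a9* was listed at 0 outside it. The part of these transcripts in the differences of the 10 genes was not tested.

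BACH2 and BCL6 are known repressors of *Prdm1*, and *Pax5* is a target of its product, so the balance within each library was compared. *Prdm1* had 40.0, 17.1 and 16.7 FPKM in WT and 41.3, 29.2 and 55.9 FPKM in KO replicates 1 to 3. The FPKM of *Bach2* was therefore 3.11 and 3.20 times that of *Prdm1* in WT replicates 2 and 3, and 1.15, 1.24 and 1.73 times in WT replicate 1 and KO replicates 1 and 2. In KO replicate 3 it was 0.843 times. *Pax5* was at 28.7 and 30.2 times *Prdm1* in WT replicates 2 and 3, and at 7.66 to 20.8 times in the other 4 libraries. *Bcl6* stayed below *Prdm1* in all libraries, at 0.0337 to 0.147 times its FPKM. As the difference of the log2(FPKM + 1) values, the balance with *Prdm1* had a KO minus WT difference of −0.78 for *Pax5*, −0.86 for *Bach2* and −1.01 for *Bcl6*. Leaving WT replicate 1 out gave −1.18, −1.33 and −1.45, and leaving KO replicate 3 out gave −0.43, −0.60 and −0.78. The groups overlapped in each (exact permutation test, two-sided, n = 3 each, p = 0.3, 0.3 and 0.2, or 0.3 for each after Benjamini-Hochberg adjustment over the 3). The smallest p this design allows is 0.1, and the 3 values share *Prdm1*, so they are not separate tests. Most of each difference lay in *Prdm1*, whose own log2 fold change was 0.82 (SE 0.37). Those of *Pax5*, *Bach2* and *Bcl6* were 0.04, −0.04 and −0.19.

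**Figure D4:**
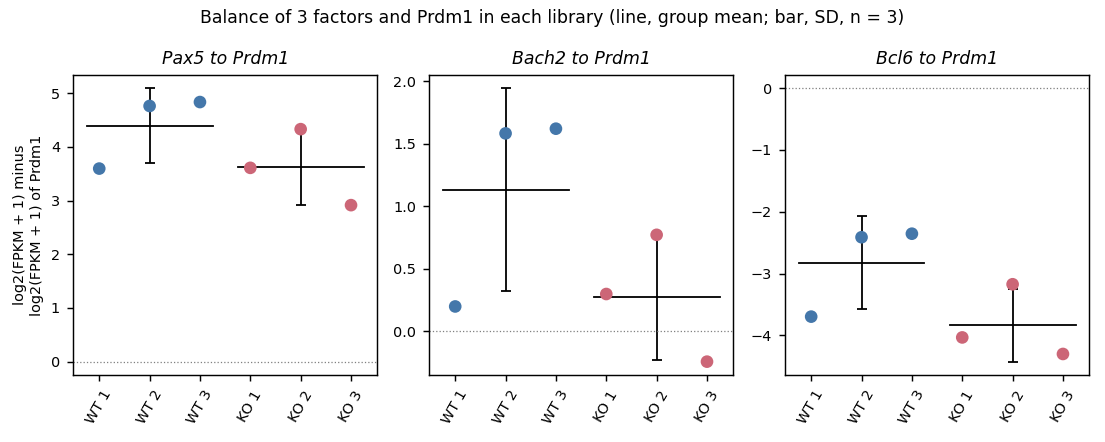
Difference between the log2(FPKM + 1) of *Pax5*, *Bach2* or *Bcl6* and that of *Prdm1* in each WT (blue) and KO (red) library, with the group mean as a line and the SD (n = 3) as a bar. WT replicates 2 and 3 are the highest libraries in all 3 panels and KO replicate 3 the lowest.

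Of 9 plasma cell genes fixed as a list, 8 were tested and 0 passed, with 6 higher and 2 lower in KO cells and a median log2 fold change of 0.25. The largest after *Prdm1* (0.82, SE 0.37) was that of *Jchain*, the joining chain of secreted IgA and IgM, at 0.65 (SE 0.31), and the lowest were those of *Zbtb20* at −0.26 and *Sdc1* at −0.14. *Xbp1*, which expands the secretory machinery, had 363, 213 and 193 FPKM in WT and 334, 233 and 474 FPKM in KO replicates 1 to 3. KO replicate 2 thus stood near WT replicates 2 and 3 for *Xbp1*, although it had the highest *Pax5* and *Ebf1*. With WT replicate 1 left out, the median of the list was 0.40, and 2 of the 8 were called, against 9.40% of all genes tested. These were *Prdm1*, at a log2 fold change of 1.22, and *Jchain*, both higher in KO cells (adjusted p = 0.0369 and 0.0255, limma with Benjamini-Hochberg adjustment).

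Other transcription factors of B cells were compared next. Of 16 in the list 15 were tested and 0 passed, with 9 higher and 6 lower in KO cells and a median log2 fold change of 0.09. *Ets1*, whose product restrains plasma cell differentiation, had 142, 85.6 and 87.0 FPKM in WT and 133, 137 and 144 FPKM in KO replicates 1 to 3. Its log2 fold change was 0.44 (SE 0.19), the largest of the list, and WT replicates 2 and 3 were low as they were for *Foxo1* and *Pou2af1*. The KO values of *Foxp1*, *Mef2c* and *Runx1* lay all above the WT values, with log2 fold changes of 0.31 (SE 0.11), 0.16 (SE 0.06) and 0.16 (SE 0.07). *Foxp1*, a forkhead gene needed in early B cells, had 244, 187 and 189 FPKM in WT and 253, 266 and 246 FPKM in KO replicates 1 to 3. *Foxo3* was the only one with all KO values below WT, at −0.14 (SE 0.07), and *Id2*, an inhibitor of E proteins, was lowest at −0.15 (SE 0.10). Among all genes tested, the KO values lay all above WT in 4.06% and all below in 6.03%. *Spi1*, the close relative of *Spib*, had 88.2, 61.0 and 62.3 FPKM in WT and 73.5, 76.6 and 80.8 FPKM in KO replicates 1 to 3. The ratio of *Spib* to *Spi1* was accordingly 9.40 and 9.24 in WT replicates 2 and 3 and 5.43 to 7.49 in the other libraries. Without WT replicate 1, 3 of the 15 were called, all higher in KO cells, as were 3.64% of all genes tested.

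Genes that these factors are known to activate were described as a list. Of 15 B-cell identity target genes 14 were tested and 0 passed, with 10 higher and 4 lower and a median log2 fold change of 0.10. *Fcer2a*, which encodes CD23, had the largest log2 fold change, at 0.51 (SE 0.23), with 88.0 FPKM in KO replicate 2 and 37.0 to 54.7 FPKM elsewhere. *Cd79b*, of the B-cell receptor, followed at 0.41 (SE 0.20). The lowest were *Cd79a* at −0.36 (SE 0.31) and the complement receptor gene *Cr2* at −0.01 (SE 0.14). *Cd79a* is also *Mb1*, whose locus drives the cre, and whether the cre bears on its level was not tested. Leaving out WT replicate 1 moved the median to 0.21, and 1 of the 14 was called, against 9.40% of all genes tested. This was *Cd79b*, at 0.65 (adjusted p = 0.0188, limma with Benjamini-Hochberg adjustment).

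Of 8 known targets of FOXO1, 6 were tested and 0 passed, with 4 higher and 2 lower and a median log2 fold change of 0.36. *S1pr1*, the gene of a receptor for sphingosine 1-phosphate, had 36.3, 21.4 and 19.9 FPKM in WT and 31.6, 28.7 and 46.6 FPKM in KO replicates 1 to 3, and was lowest in WT replicates 2 and 3, as *Foxo1* was. Not all targets shared this pattern, because *Il7r* (−0.47, SE 0.16) lay lower in all KO libraries at 0.318 to 0.660 FPKM, against 0.792 to 1.37 FPKM in WT, and *Ccr7* was at −0.28 (SE 0.15). Without WT replicate 1, 3 of the 6 were called, all higher in KO cells (3.64% of all genes tested were), among them *Klf2*, a factor of lymphocyte quiescence. *S1pr1* was not among those called (adjusted p = 0.0730, limma with Benjamini-Hochberg adjustment).

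**Figure D5:**
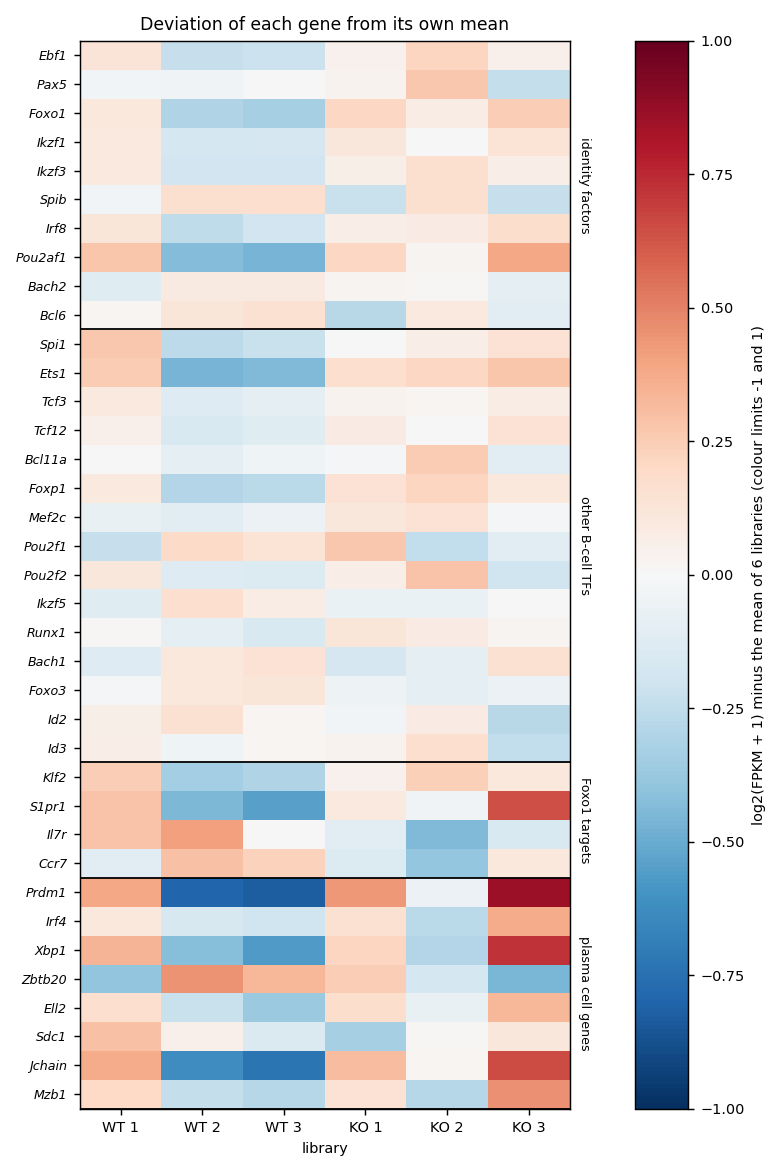
Deviation of log2(FPKM + 1) from the gene's mean over 6 libraries (colour, limits −1 and 1) for the 10 identity factors, 15 other B-cell transcription factors, 4 targets of FOXO1 and 8 plasma cell genes, with the libraries as columns. *Pou2af1*, *Ets1*, *Prdm1* and *Jchain* are low (blue) in WT replicates 2 and 3, and *Bach2*, *Bcl6* and *Zbtb20* are not.

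The genes with profiles most like those of the 3 most variable members were found among 9265 others with a mean of at least 5 FPKM, by the root mean square difference between centred log2(FPKM + 1) values over the 6 libraries. Closest to *Pou2af1* were *Ighg2b*, a heavy chain constant gene, with a difference of 0.034, *Gpd1l* with 0.035 and *Rhoh* with 0.036. *Ighg2b* had 465, 292 and 299 FPKM in WT and 470.2, 413 and 517 FPKM in KO replicates 1 to 3. Closest to *Foxo1* were *Retreg1* (0.032), *Dhx40* (0.040) and *Lrrc8c* (0.043). The profile of *Spib* was matched most closely by *8430429K09Rik* (0.020), *Def6* (0.024) and *Gga2* (0.031).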

How the data were processed

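Bulk RNA-seq of 6 libraries, 3 WT and 3 *Hif1a* KO, was used. The authors deposited FPKM values, 1 column per library, made from HTSeq counts and gene length after cleaned reads had been placed on mm10 by TopHat. Annotation release, strand option and treatment of multiply aligned reads are not given in the sources used here, so overlapping genes are uncertain. GENCODE vM21 (GRCm38), used for gene names and positions, held 46488 of 46983 gene IDs. No 2 libraries were identical (0 pairs).

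Reads, depths and gene lengths were recovered from the FPKM values by requiring whole reads (within 0.01) in all 6 libraries, which succeeded for 25717 of the 25717 genes above 0. The smallest length that did so was taken, and the reads made up 99.88% to 99.93% of each library's denominator.

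Genes with a mean of at least 0.5 FPKM were tested on log2(FPKM + 1), which understates changes of low genes, with limma 3.58.1 in R 4.3.3 (mean-variance trend, no covariates, Benjamini-Hochberg adjustment over all 13312 genes, threshold 0.05). The DESeq test of the study was not run, and voom on the recovered reads was the alternative for counts. Balances with *Prdm1* were tested by exact permutation in Python 3.11.15 with scipy 1.17.1. The limma fit was tried on simulated data with independent noise per gene and library. These had no deviation shared by a whole library, so they do not bear on the calls without WT replicate 1. Alternatives changed the pseudocount, filter, scaling, block, test, library weights or set of libraries. The named genes are the 10 members. From each other list they are the 2 genes highest and 2 lowest by fold change and those whose groups did not overlap, and a few more (*Xbp1*, *Spi1*, *S1pr1*, *Klf2*, *Ikzf2*, *Ikzf5*, *C1qa*, *Clec9a*, *Ccr9*, *Pacsin1*) were picked after their values were seen. Some list genes that the rule names are not reported here. Members and lists were chosen with earlier results of these data known. The promoter search was added after the values were seen.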

Additional observations from a re-analysis of the deposited data

How the results depend on the processing

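With all 6 libraries 0 of 13312 genes and 0 of the 10 members were called, with 929 genes at an unadjusted p under 0.05. The counts stayed at 0 with a pseudocount of 0.1, with no filter or a minimum mean of 5 FPKM (which leaves *Bcl6* untested), with median-ratio scaling, with quantile normalization and with voom on the recovered reads (832 genes at an unadjusted p under 0.05). Leaving out 1 library at a time gave 0 to 1251 genes and 0 to 5 members. The highest counts of both came without WT replicate 1, and 1 gene was called without *Hif1a* KO replicate 1. Library weights from limma, which gave WT replicate 1 the lowest weight (0.238), called 1449 genes and 6 members, *Ikzf1* in addition to the 5. Of the members' directions only that of *Pax5* turned, to −0.081 without *Hif1a* KO replicate 2, against 0.17 without *Hif1a* KO replicate 3. The balances of *Pax5*, *Bach2* and *Bcl6* with *Prdm1* kept their direction in all 10 alternatives run for each. Their sizes moved, over −1.18 to −0.43, −1.33 to −0.60 and −1.45 to −0.78 with 1 library left out, with the lowest values without WT replicate 1.

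Same-numbered libraries did not consistently deviate together (correlations across genes of −0.099, 0.14 and −0.28, against −0.20 to 0.30 for the other pairs). With deviations centred within groups of 3 libraries, these correlations cannot settle whether the numbers pair the samples. The replicate block called 0 genes and 0 members, with 694 genes at an unadjusted p under 0.05. Under it the balances with *Prdm1* were −0.78, −0.86 and −1.01, as without it, since each group has the same numbers. With 3 libraries per group the permutation test cannot pass 0.05, and at 148 to 301 reads per library *Bcl6* is the member with the fewest reads. The SE of its log2 fold change (0.13) was below that of *Pou2af1* (0.21), on a scale that understates changes of low genes.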

Other observations

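WT replicate 1 carried transcripts that were nearly missing elsewhere. *Rag1*, a recombinase gene of early lymphocytes and a known FOXO1 target, had 0.992 FPKM there and at most 0.0557 FPKM in the other libraries. *Rag2* was listed at 0 in the other 5 libraries and had 0.122 FPKM in WT replicate 1. *S100a8* and *S100a9*, granulocyte genes, had 10.9 and 19.9 FPKM in WT replicate 1, while *S100a8* was at most 0.157 FPKM in the other libraries. *Rag1* and *Rag2* were below the level for testing.

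*Cd79a* (*Mb1*), whose locus drives the cre in this model, had 1203, 739 and 779 FPKM in WT and 498, 1074 and 611 FPKM in KO replicates 1 to 3. KO replicate 2 lay near WT replicate 1 and above the other KO libraries.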
